A study of Bos taurus with 170 samples.

Results

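The RNA decay and deadenylation genes were the 46 of 10772 gene symbols in the UMI table that began with CNOT, EXOSC, DCP1, DCP2, EDC, XRN, PABPC, PAN2, PAN3, YTHDF, CPEB, BTG, ZFP36, UPF, SMG, PARN or DIS3, or were ZCCHC6 or ZCCHC11. Their transcripts were counted by SCRB-Seq, a method that tags every mRNA molecule it captures with a unique molecular identifier (UMI), in single blastomeres of 6 Day 2 embryos at the 8-cell stage and 8 Day 3 embryos at the 16-cell stage. All embryos were bovine, came from slaughterhouse oocytes matured and fertilised in vitro with frozen-thawed sperm, and were chosen by the study for their cleavage timing. No treatment or genetic change set the groups apart. Cells with 2000 or more UMI were summed per embryo, and levels are in CPM, which is the count of a gene per 1000000 gene UMI of that embryo. The method counts transcript 3′ ends, so these levels are not scaled by gene length.

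An mRNA is usually degraded in steps. The CCR4-NOT complex, PAN2-PAN3 and PARN shorten its poly(A) tail. The transcript can then be decapped by DCP2 and digested from its 5′ end by XRN1. It can also be digested from its 3′ end by the exosome or a DIS3-type nuclease. ZCCHC6 and ZCCHC11 add uridines to transcripts with short tails. Adaptor proteins such as BTG1, ZFP36L2 and the m6A reader YTHDF2 bring deadenylases to chosen transcripts, and in early embryos this machinery clears RNA stored in the oocyte while the embryonic genome becomes active. A CPM is a share of an embryo's RNA and does not tell stored from newly made transcripts. Because the RNA was primed from its poly(A) tail, a change in amount and a change in tail length cannot be told apart here.

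Of 170 cells, 161 were kept, 43 from Day 2 and 118 from Day 3, and an embryo held 294912 to 920192 UMI on genes. By the barcodes in the labels, Day3-E4 to Day3-E8 belong to another barcode set than Day3-E1, Day3-E2 and the Day 2 embryos, which form the first set, while Day3-E3 could not be placed. Of the 93 barcodes, 77 were used for 2 cells. Gene UMI per spike-in (ERCC) UMI followed this split, with 64.8 to 71.7 in the Day 2 embryos and Day3-E1 to Day3-E3 and 32.6 to 40.2 in Day3-E4 to Day3-E8. The 12 oocyte and early embryo markers in the table summed to 12040 to 14479 CPM on Day 2 and 2870 to 12225 CPM on Day 3. The 8 cumulus and granulosa markers summed to 227 to 326 CPM on Day 2 and 153 to 327 CPM on Day 3, and the blood and sperm markers did not exceed 7.72 CPM in any embryo. Day3-E1 stood apart from the other Day 3 embryos, as its values below show.

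All 46 genes had a UMI on Day 2 and 45 had one on Day 3. Enough counts for the test were found for 36, and 13 of these (36.1%) differed between the days by edgeR's quasi-likelihood test at a Benjamini-Hochberg adjusted threshold of 0.05, against 32.46% of the 5274 genes tested. The calls were uneven in direction. Higher on Day 3 were 12 of 36 (33.3%) against 21.18% of all genes, namely BTG1, BTG3, ZCCHC6, YTHDF2, EXOSC1, ZFP36L2, DIS3L, CNOT9, YTHDF3, CNOT6, SMG1 and PABPC4. Lower was YTHDF1 alone (2.78%) against 11.28% of all genes. The embryos of the days did not overlap for YTHDF1 only, while 9.367% of all genes tested showed no overlap. The median log2 fold change over the 36 was 0.34, against -0.04 over all genes, and 24 of the 36 (66.7%) lay above 0, against 47.7% of all genes. The count of lower members was small enough for a single embryo to change it. It became 3 without Day3-E1, where EXOSC8 and EXOSC9 were added, 2 without Day3-E3, where XRN1 was added, and 2 without Day3-E5, where CNOT10 was added.

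**Figure D1:**
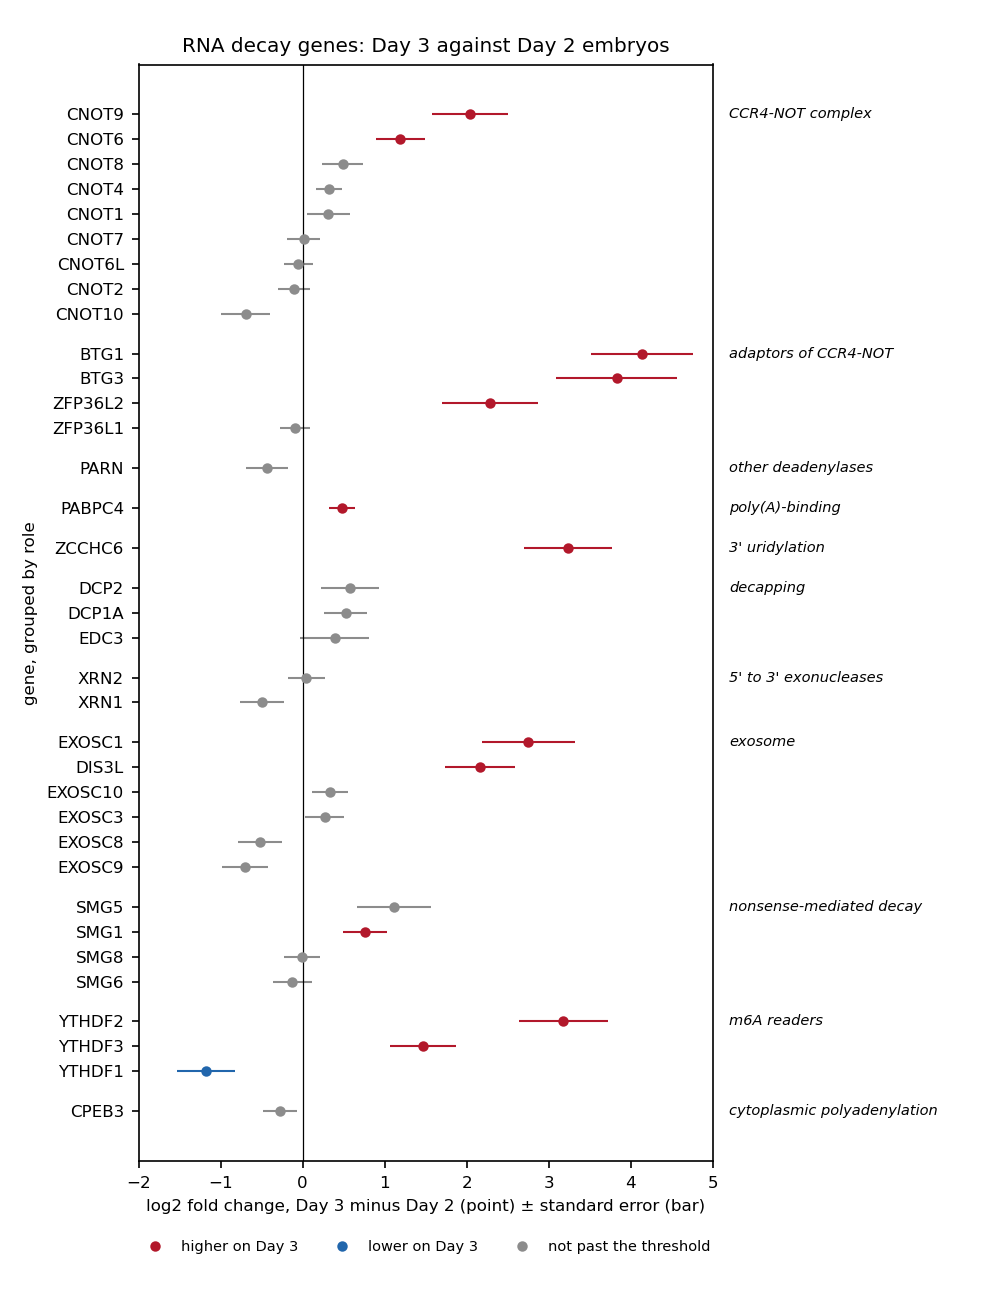
Log2 fold change between Day 3 and Day 2 embryos (x axis) of 35 of the 36 RNA decay genes that were tested, grouped by role (y axis), with points for the fitted value and bars for its standard error. The 12 genes higher on Day 3 lie to the right of 0 in the CCR4-NOT, adaptor, poly(A)-binding, uridylation, exosome, nonsense-mediated decay and m6A reader groups, and YTHDF1, at -1.18, is the 1 gene called lower.

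How many genes were called in each direction depended on how embryos were scaled. The median over all genes moved from -0.04 with TMM scaling to -0.27 without it and to -0.77 with scaling to the spike-ins, whose ratio to gene UMI differed between the barcode sets. The split of the calls was 12 higher and 1 lower with TMM, 10 and 3 without it, and 8 and 9 with spike-in scaling. Over all genes it was 1117 higher and 595 lower, 890 and 981, and 456 and 1907. BTG1, BTG3, ZCCHC6, YTHDF2, EXOSC1, ZFP36L2, DIS3L, CNOT9 and YTHDF1 passed the threshold under each of these 3 scalings in the same direction. With the embryos of the first barcode set alone, which left 2 Day 3 embryos, BTG1, ZCCHC6, YTHDF2 and ZFP36L2 passed it. The 2 embryos, Day3-E1 and Day3-E2, were on plate 1 without any Day 2 embryo, so day and plate coincided. For BTG1, ZCCHC6 and YTHDF2, Day3-E1 lay inside the Day 2 range, which left Day3-E2 alone above it. On plate 2 (2 embryos of each day) and on plate 3 (4 Day 2 and 2 Day 3 embryos), the mean CPM of all 13 called genes differed in the called direction. The 13 genes were called from embryos that include these, so the agreement is no separate test. On both plates every Day 2 embryo was of the first barcode set and every Day 3 embryo of the other. Day and barcode set cannot be told apart there. Plate 1 held Day 3 embryos only.

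Of the 9 CCR4-NOT subunits, 2 rose and 7 did not pass the test, while 21.18% of all genes tested were called higher. CNOT6, a catalytic deadenylase subunit, rose from 131 ± 13.51 CPM (SD, n = 6) to 237 ± 87.2 CPM (SD, n = 8). It ranged from 120 to 152 CPM (median 126) on Day 2 and from 146 to 392 CPM (median 220) on Day 3, and 7 of 8 Day 3 embryos exceeded every Day 2 embryo. The log2 fold change was 1.19 with a standard error of 0.30 (edgeR's quasi-likelihood test, adjusted p = 0.00638), and with spike-in scaling it was 0.27 (adjusted p = 0.433 by the same test). CNOT9, a subunit that binds adaptor proteins, ranged from 19.8 to 44.9 CPM (median 38.6) on Day 2 and from 30.0 to 245 CPM (median 109) on Day 3. Day3-E1 was the lowest Day 3 embryo and lay inside the Day 2 range, and the other 7 lay above it. The log2 fold change of CNOT9 was 2.04 with a standard error of 0.46 (adjusted p = 0.00359 in edgeR's quasi-likelihood test).

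The other catalytic subunits did not pass the test. CNOT6L, the paralog of CNOT6, had 825 ± 32.7 CPM (SD, n = 6) on Day 2 and 686 ± 259 CPM (SD, n = 8) on Day 3. Its Day 2 embryos kept within 765 to 856 CPM (median 827), and the Day 3 embryos spread on both sides of them, from 327 CPM in Day3-E8 to 1040 CPM in Day3-E5 (median 683). The log2 fold change was -0.05 with a standard error of 0.18 (edgeR's quasi-likelihood test, adjusted p = 0.836). CNOT7 ranged from 658 to 794 CPM on Day 2 and from 317 to 976 CPM on Day 3, with a log2 fold change of 0.01 and a standard error of 0.21. Here 3 Day 3 embryos lay above and 5 below all Day 2 embryos. For its paralog CNOT8 the mean was 50.8 CPM on Day 2 and 60.02 CPM on Day 3 (log2 fold change 0.49, standard error 0.25; edgeR's test, adjusted p = 0.137).

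Of the CNOT6 pair, CNOT6L took 84.5% to 87.7% of the pair's UMI in Day 2 embryos and 50.8% to 87.7% in Day 3 embryos (median 75.3%), and CNOT6 the rest. CNOT6L stood at 50.8% in Day3-E4 and 51.4% in Day3-E8 but at 85.7% in Day3-E1 and 87.7% in Day3-E5, so the days overlapped. CNOT1, the scaffold on which the complex is built, had 339 ± 30.2 CPM (SD, n = 6) on Day 2 and 334 ± 107 CPM (SD, n = 8) on Day 3 and was not called (log2 fold change 0.31, standard error 0.26). CNOT10, named after its values were seen, had 158 CPM on Day 2 and 85.2 CPM on Day 3, with 6 of 8 Day 3 embryos below all Day 2 embryos. Its log2 fold change of -0.69 had an unadjusted p of 0.0325 and an adjusted p of 0.0818 by edgeR's quasi-likelihood test. It passed the threshold with DESeq2 (adjusted p = 0.0457), without TMM (edgeR, 0.0492) and with spike-in scaling (edgeR, 0.018, log2 fold change -1.36). CNOT2 and CNOT4 did not pass the test either, though CNOT4 passed with DESeq2 and CNOT2 was called lower with spike-in scaling.

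Among the adaptors that bring CCR4-NOT to its targets, 3 of the 4 tested rose, against 21.18% of all genes. BTG1 had the largest log2 fold change of all 36 genes. BTG1 and BTG3 belong to the BTG/TOB family of antiproliferative proteins, which bind the deadenylase subunits. The Day 2 embryos had 27.8, 42.4, 29.0, 33.5, 33.3 and 36.5 CPM of BTG1 in the order E1 to E6. The Day 3 embryos had 38.3, 627, 160, 888, 177, 511, 475 and 762 CPM in the order E1 to E8. All Day 3 embryos but Day3-E1, which lay inside the Day 2 range, were above every Day 2 embryo. The mean was 33.7 ± 5.29 CPM (SD, n = 6) on Day 2 and 455 ± 305 CPM (SD, n = 8) on Day 3, and the log2 fold change was 4.13 with a standard error of 0.62 (adjusted p = 0.000204 in edgeR's quasi-likelihood test).

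BTG3 showed a like pattern at a lower level. It had 4.28 ± 2.87 CPM (SD, n = 6) on Day 2 and 50.5 ± 37.1 CPM (SD, n = 8) on Day 3, from 17 and 147 UMI in all, and 0 UMI in Day2-E1, which allows up to 6.41 CPM there. BTG3 rose with a log2 fold change of 3.83 and a standard error of 0.74 (edgeR's quasi-likelihood test, adjusted p = 0.00119). Without Day3-E2, E3, E4, E6, E7 or E8 it had too few counts to be tested, and with no filter on low counts it passed at an adjusted p of 0.000279 by the same test. ZFP36L2, which binds AU-rich elements in 3′ ends, ranged from 19.2 to 31.9 CPM (median 29.1) on Day 2 and from 21.0 CPM in Day3-E3 to 281 CPM in Day3-E8 (median 60.4). The embryos Day3-E2 and Day3-E8 stood far above the rest, at 241 and 281 CPM. The log2 fold change was 2.28 with a standard error of 0.59 (edgeR's quasi-likelihood test, adjusted p = 0.00766), and 1.66 without Day3-E8. Its paralog ZFP36L1 had 518 ± 134 CPM (SD, n = 6) on Day 2 and 408 ± 110 CPM (SD, n = 8) on Day 3 and was not called (log2 fold change -0.09, standard error 0.19), but with spike-in scaling it was lower (log2 fold change -0.89, edgeR adjusted p = 0.029). ZFP36L2 took 3.67% to 7.41% of the UMI of the ZFP36 genes on Day 2 and 4.44% to 49.3% on Day 3.

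Among the deadenylases outside CCR4-NOT and the poly(A)-binding proteins, PABPC4 passed the test. PARN, a deadenylase that also acts on small structured RNAs, had 481 ± 46.1 CPM (SD, n = 6) on Day 2 and 312 ± 156 CPM (SD, n = 8) on Day 3. Its Day 3 embryos spread from 77.2 CPM in Day3-E8 to 502 CPM in Day3-E5, with 5 of 8 below all Day 2 embryos, and the log2 fold change of -0.44 (standard error 0.25) did not pass the test (adjusted p = 0.191 in edgeR's quasi-likelihood test). With spike-in scaling PARN was lower by the same test (log2 fold change -1.05, edgeR adjusted p = 0.0386). PAN2 had 48 UMI on Day 2 and 21 on Day 3 and was not tested. PABPC4, a cytoplasmic poly(A)-binding protein, had 591 ± 61.9 CPM (SD, n = 6) on Day 2 and 702 ± 202 CPM (SD, n = 8) on Day 3. With 5 Day 3 embryos above and 1 below all Day 2 embryos it passed the threshold by a narrow margin, at a log2 fold change of 0.48 with a standard error of 0.16 (edgeR's quasi-likelihood test, adjusted p = 0.0294). The call was lost without Day2-E1, E3, E4, E5 or E6 or Day3-E6 or E7 (adjusted p from 0.0698 to 0.115 by the same test), without TMM (0.335) and without the filter on low counts (0.146), and with spike-in scaling the sign turned (-0.27). How reads shared by near-identical PABPC copies were counted is not given in the sources used here, so its level is uncertain.

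ZCCHC6, also known as TUT7, a uridylyltransferase that marks transcripts with short tails, rose to the highest Day 3 level of the 46 genes in CPM. The Day 2 embryos had 348, 365, 402, 286, 413 and 312 CPM in the order E1 to E6. The Day 3 embryos had 373, 5391, 2142, 2890, 741, 1907, 2224 and 4801 CPM in the order E1 to E8. Day3-E1 lay inside the Day 2 range and the other 7 embryos above it. The means were 355 ± 49.8 CPM (SD, n = 6) and 2559 ± 1771 CPM (SD, n = 8), and the log2 fold change was 3.24 with a standard error of 0.54 (adjusted p = 0.000394 in edgeR's quasi-likelihood test). The paralog ZCCHC11 (TUT4) had 66 UMI on Day 2 and 43 on Day 3 and was not tested, and ZCCHC6 took 92.2% or more of the pair's UMI in every embryo.

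The decapping genes and the 5′ exonucleases did not pass the test on either side. DCP2, the decapping enzyme, had 47.9 CPM on Day 2 and 57.6 CPM on Day 3 (log2 fold change 0.58, standard error 0.35), and its cofactor DCP1A had 137 and 158 CPM (0.52, standard error 0.26). EDC3, an enhancer of decapping, had 20.5 and 21.6 CPM. DCP1B had 3 UMI on Day 2 and 0 on Day 3, which allows up to 0.952 CPM over the Day 3 embryos together. XRN1, the cytoplasmic 5′ exonuclease, had 204 ± 43.8 CPM (SD, n = 6) on Day 2 and 122 ± 64.3 CPM (SD, n = 8) on Day 3, with 6 of 8 Day 3 embryos below all Day 2 embryos. For XRN1 the log2 fold change was -0.49 with a standard error of 0.27 (edgeR's quasi-likelihood test, adjusted p = 0.163). With plate as a term XRN1 was lower (log2 fold change -1.11, edgeR adjusted p = 0.00703), as it was with spike-in scaling (-1.06, edgeR adjusted p = 0.0463). The nuclear XRN2 had 290 and 245 CPM, and its log2 fold change was 0.05 with a standard error of 0.23.

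Of 10 exosome and DIS3-type genes, 6 were tested, 2 rose and 4 did not pass the test. Of all genes tested, 21.18% were called higher. EXOSC1, a subunit of the exosome cap, ranged from 20.5 to 47.9 CPM (median 26.2) on Day 2 and from 25.0 CPM in Day3-E1 to 353 CPM in Day3-E4 (median 142). Only Day3-E1 did not exceed the Day 2 range. Its log2 fold change was 2.75 with a standard error of 0.57 (adjusted p = 0.00183 in edgeR's quasi-likelihood test). DIS3L, the cytoplasmic exonuclease of the exosome, ranged from 35.9 to 57.6 CPM (median 44.2) on Day 2 and from 43.3 CPM in Day3-E1 to 317 CPM in Day3-E4 (median 143). It rose with a log2 fold change of 2.16 and a standard error of 0.43 (adjusted p = 0.00137 in edgeR's quasi-likelihood test), again with 7 of 8 Day 3 embryos above all Day 2 embryos.

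The other tested exosome genes did not pass the test. EXOSC10, a nuclear exonuclease, had 148 CPM on Day 2 and 151 CPM on Day 3 (log2 fold change 0.33, standard error 0.22). The ring subunits EXOSC8 and EXOSC9, named after their values were seen, had 250 and 163 CPM on Day 2 and 151 and 83.6 CPM on Day 3. For EXOSC8, 6 of 8 Day 3 embryos and for EXOSC9 7 of 8 lay below all Day 2 embryos. Their log2 fold changes were -0.53 (standard error 0.27) and -0.71 (standard error 0.28), with adjusted p = 0.137 and 0.0608 by edgeR's quasi-likelihood test. EXOSC9 was called lower with plate as a term (log2 fold change -1.34, edgeR adjusted p = 0.00532) and with spike-in scaling (-1.34, edgeR adjusted p = 0.0183). It also passed with DESeq2, without TMM, without the filter on low counts and with cells of 10000 or more UMI (adjusted p from 0.0169 to 0.0472), but not with the replicate block (edgeR, 0.114) or the first barcode set alone (edgeR, 0.655). EXOSC8 passed with spike-in scaling (log2 fold change -1.06, edgeR adjusted p = 0.0494). EXOSC3 had a log2 fold change of 0.27 with a standard error of 0.24. EXOSC2, EXOSC4, EXOSC6 and DIS3L2 were too low to be tested, as were PABPC5, SMG9 and ZFP36 of the other groups. The 10 untested genes had 3 to 120 UMI each.

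In nonsense-mediated decay, which removes transcripts with premature stop codons, 1 of 5 tested genes passed the test, against 32.46% of all genes. SMG1, the kinase that phosphorylates UPF1, had 207 ± 35.7 CPM (SD, n = 6) on Day 2 and 288 ± 115 CPM (SD, n = 8) on Day 3, with 4 Day 3 embryos above and 1 below all Day 2 embryos. Its log2 fold change of 0.76 with a standard error of 0.27 passed narrowly (adjusted p = 0.0384 in edgeR's quasi-likelihood test). It was lost without Day2-E1, E2, E3, E5 or E6 or Day3-E2, E3, E4, E6 or E8 (adjusted p from 0.0516 to 0.0932 by the same test), with plate as a term (0.168), without TMM (0.14) and without the filter on low counts (0.073). With spike-in scaling the log2 fold change of SMG1 was 0.024 (edgeR adjusted p = 0.956). SMG5, which binds phosphorylated UPF1 and was named after its values were seen, had a log2 fold change of 1.11 with a standard error of 0.45 (edgeR's quasi-likelihood test, adjusted p = 0.0643; DESeq2, adjusted p = 0.0236). CPEB3, of the proteins that govern cytoplasmic polyadenylation, was not called, but it was called lower with spike-in scaling.

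The YTHDF genes, which encode the cytoplasmic readers of N6-methyladenosine (m6A) in mRNA, all passed the test. Of all genes tested, 32.46% did. With YTHDF1 the only member called lower, no other group of the members could have calls in both directions. The decapping activators and exosome cofactors among the other lists below also held both. YTHDF1 had 122, 113, 119, 126, 127 and 123 CPM in the Day 2 embryos E1 to E6. The 8 Day 3 embryos ranged from 9.70 CPM in Day3-E7 to 101.4 CPM in Day3-E5 (median 32.3), with 91.6 CPM in Day3-E1. All 8 lay below the lowest Day 2 embryo. The mean fell from 122 ± 5.148 CPM (SD, n = 6) to 46.5 ± 36.3 CPM (SD, n = 8), and the log2 fold change was -1.18 with a standard error of 0.35 (adjusted p = 0.0177 in edgeR's quasi-likelihood test).

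YTHDF2, the reader that recruits CCR4-NOT to methylated transcripts, went the other way. It had 40.6, 32.6, 31.7, 39.6, 43.5 and 38.7 CPM in the Day 2 embryos E1 to E6. In the Day 3 embryos E1 to E8 it had 40.0, 305, 139, 439, 109, 184, 288 and 564 CPM. Day3-E1 again lay inside the Day 2 range, with the other 7 embryos above it. The log2 fold change was 3.18 with a standard error of 0.54 (adjusted p = 0.000486 in edgeR's quasi-likelihood test). YTHDF3 ranged from 84.3 to 122 CPM (median 98.6) on Day 2 and from 96.2 to 415 CPM (median 217) on Day 3, with 5 of 8 Day 3 embryos above all Day 2 embryos. Its log2 fold change was 1.47 with a standard error of 0.40 (edgeR's quasi-likelihood test, adjusted p = 0.0111), and it lost its call with plate as a term (adjusted p = 0.0581) and with spike-in scaling (0.243 by the same test).

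Within this family the shares do not depend on scaling. YTHDF1 took 43.4% to 50.0% of the YTHDF UMI in Day 2 embryos (median 46.7%) and 1.04% to 38.2% in Day 3 embryos (median 6.83%). YTHDF2 took 11.65% to 15.74% on Day 2 (median 14.93%) and 16.67% to 57.0% on Day 3 (median 49.2%). Neither range overlapped between the days, though for YTHDF2 the share in Day2-E6 (15.74%) and that in Day3-E1 (16.67%) lay close. Day3-E1 was the Day 3 embryo nearest to Day 2 in both. Shares within a family are tied, since a lower share of 1 gene raises those of the others. YTHDF3 took 34.3% to 44.7% and 31.4% to 48.0%, which overlapped. The 3 genes together had 108 to 384 UMI per embryo. No test was made on these shares.

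**Figure D2:**
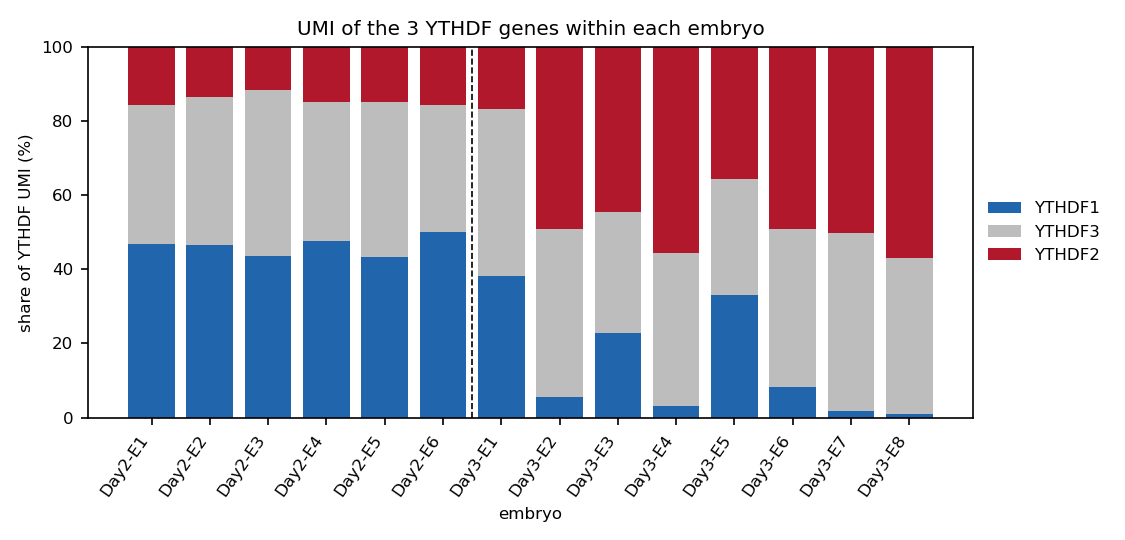
Share of each YTHDF gene (y axis, % of the UMI of the 3 genes) in each of the 14 embryos (x axis), with the dashed line between Day 2 and Day 3. YTHDF1 takes 43.4% to 50.0% of every Day 2 bar and at most 38.2% of a Day 3 bar, while YTHDF2 takes 16.67% to 57.0% on Day 3.

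The 12 rising genes did not reach their highest level in the same Day 3 embryos. The top value fell in Day3-E4 for 6 of them, in Day3-E5 for 1, in Day3-E8 for 3 and in Day3-E2 for 2. Day3-E1 had the lowest for 7, and 9 of the 12 lay within their Day 2 range there. In Day3-E6 all 12 lay above every Day 2 embryo, in Day3-E2, E7 and E8 11, in Day3-E3 and E4 10, in Day3-E5 9 and in Day3-E1 3. The 12 genes were called higher from these same embryos, so the counts are a description and no separate test. The same count over all genes is not given here. Some margins were narrow: in Day3-E5 CNOT9 had 46.79 CPM, against 44.88 CPM in the highest Day 2 embryo. BTG3 also lay only just above its Day 2 range there. The highest ZCCHC6 level, in Day3-E2, came with a BTG1 level below that of Day3-E4 and Day3-E8. Without Day3-E1 the test called 13 of the genes higher and 3 lower. Day3-E1 and Day3-E2, with 3 and 11 such genes, share plate and barcode set.

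**Figure D3:**
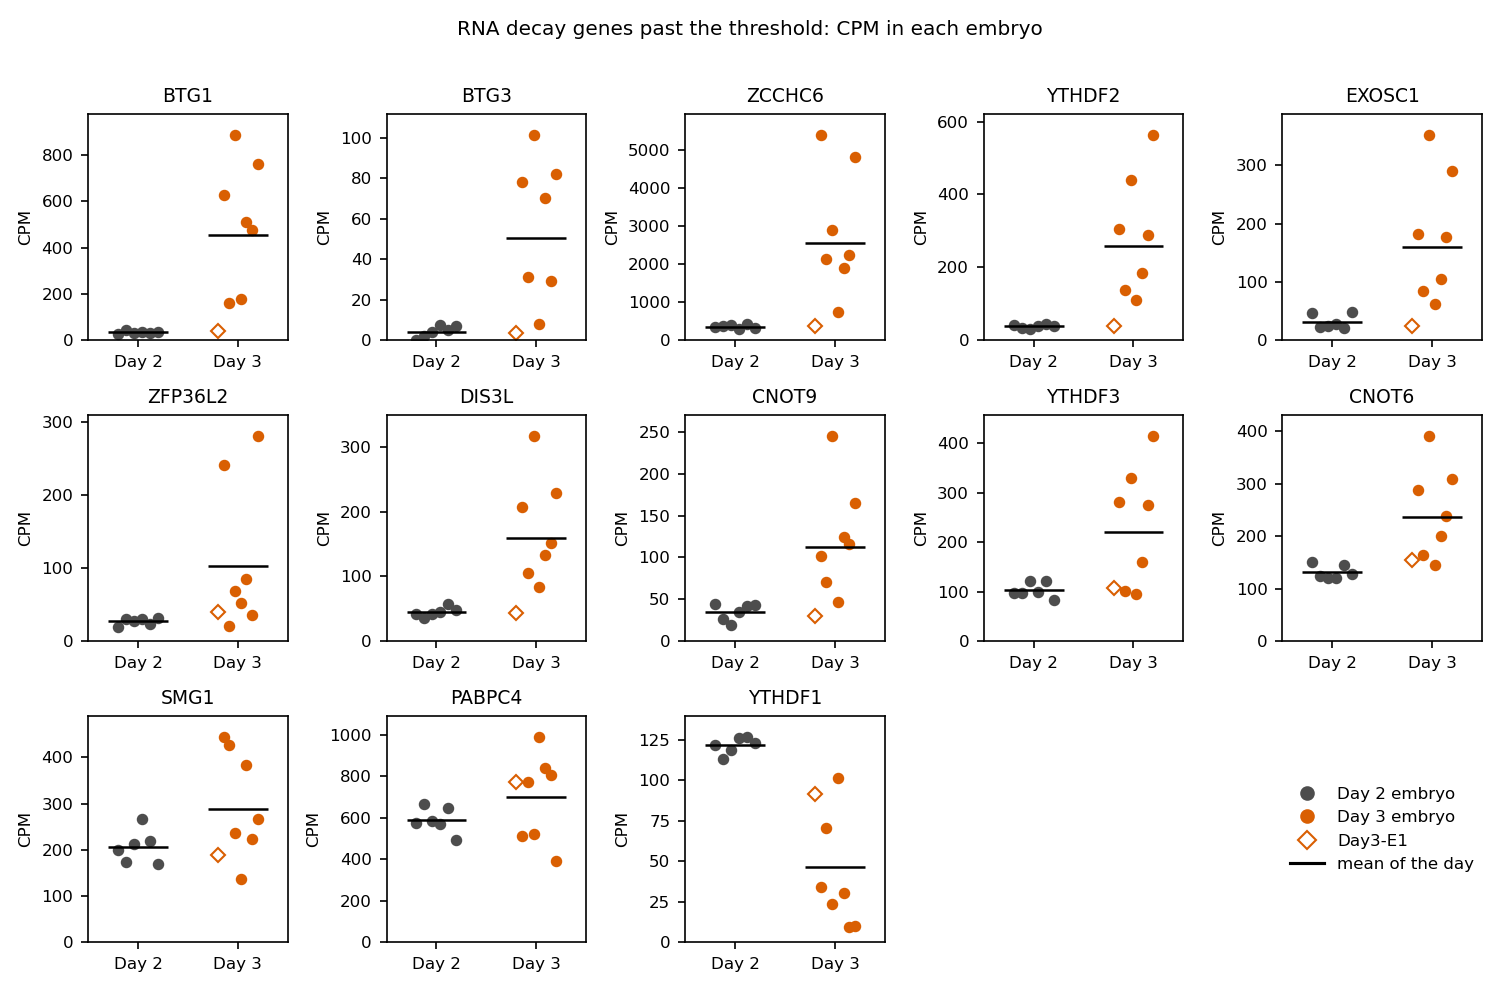
CPM (y axis, each panel on its own scale from 0) in each Day 2 and Day 3 embryo (x axis) of the 13 genes past the threshold, with the mean of each day as a line and Day3-E1 as an open diamond. In the panels of BTG1, ZCCHC6, YTHDF2 and DIS3L 7 Day 3 embryos lie above all Day 2 embryos and Day3-E1 lies among them, and for YTHDF1 all 8 lie below.

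Single cells with 10000 or more UMI (37 on Day 2, 103 on Day 3) showed how far the rise reached within an embryo. The highest ZCCHC6 level in a Day 2 cell was 619 CPM. Above it lay 81 of 103 Day 3 cells, among them 13 of 13 in Day3-E2, 14 of 14 in Day3-E8, 7 of 13 in Day3-E5 and 0 of 13 in Day3-E1. In Day3-E5 the cells ran from 134 to 1982 CPM and in Day3-E6 from 476 to 4218 CPM, so cells of 1 embryo differed widely. For BTG1 the highest Day 2 cell had 84.5 CPM, and 85 of 103 Day 3 cells lay above it, 0 of them in Day3-E1. For YTHDF2 63 of 103 Day 3 cells exceeded the highest Day 2 cell, at 140 CPM. CNOT6L had a UMI in each of the 37 Day 2 and 103 Day 3 cells, with a median of 845 CPM on Day 2 and 711 CPM on Day 3. At these depths a level near 100 CPM rests on few UMI per cell, so such ranges include counting error. Over all kept cells, median UMI per cell was 20485 to 45253 in Day 3 embryos and 54423 to 115331 in Day 2 embryos. In a shallower cell 1 UMI stands for more CPM, so a Day 3 cell passes a low Day 2 maximum more easily. The counts for BTG1 and YTHDF2 were not made at equal depth.

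**Figure D4:**
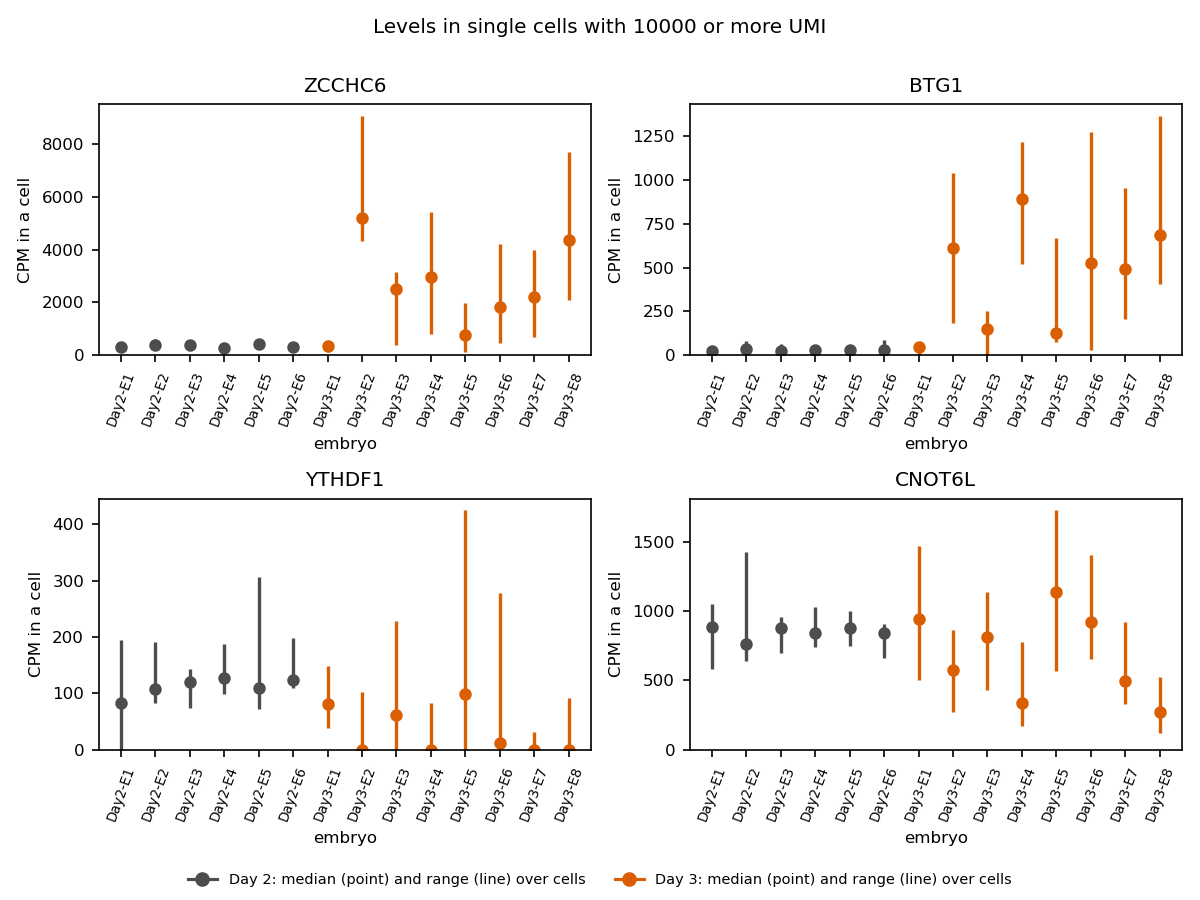
CPM in single cells (y axis, from 0) with 10000 or more UMI in each embryo (x axis), as the median (point) and the range from lowest to highest cell (line), for ZCCHC6, BTG1, YTHDF1 and CNOT6L. ZCCHC6 medians stay between 288 and 415 CPM in Day 2 embryos and at 361 CPM in Day3-E1 and reach 5188 CPM in Day3-E2.

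Day 2 cells held more UMI than Day 3 cells, so detection was compared with each cell thinned to 10000 UMI, which left out 6 Day 2 and 15 Day 3 cells. Over all cells of a day pooled, YTHDF1 was detected in 75.7% of the Day 2 and 32.0% of the Day 3 cells (86.0% and 50.0% unthinned). For YTHDF2 the shares were 35.1% and 78.6% (81.4% and 86.4% unthinned), and for BTG1 35.1% and 82.5% (79.1% and 93.2% unthinned). EXOSC1 was found in 24.3% and 61.2% of the thinned cells (69.8% and 83.9% unthinned). The pooled shares of these 4 genes kept the direction of their levels, and no test was made on them. By embryo the thinned shares of the days overlapped for all 4. For YTHDF1 the highest Day 3 embryo had 76.9% and the lowest Day 2 embryo 71.4%. The lowest Day 3 embryo had 23.1% for each of YTHDF2, BTG1 and EXOSC1. The highest Day 2 embryo had 60.0%, 75.0% and 60.0% for these genes. ZFP36L2, at 27.0% and 46.6%, turned to 81.4% and 63.6% without thinning, over 43 Day 2 and 118 Day 3 cells.

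Other genes of the same pathways were taken from 5 lists of 75 genes, of which 54 were in the table and 49 were tested. Higher on Day 3 were 14 of the 49 (28.6%), against 21.18% of all genes, and lower were 4 (8.16%), against 11.28%. The median log2 fold change over the 49 was 0.19. Of the decapping activators 2 of 10 rose and 1 fell: PATL1 went from 69.5 to 139 CPM (log2 fold change 1.35) and the helicase DDX6 from 122 to 63.1 CPM (-0.72). Of the exosome cofactors 3 of 9 rose and 1 fell, with C1D going from 27.7 to 229 CPM (3.44) and WDR61, of the Ski complex, from 87.0 to 45.4 CPM (-0.68). PAPD4, a cytoplasmic poly(A) polymerase, was the 1 of 4 polymerases that rose, from 146 to 267 CPM (1.22). The adjusted p of these 5 genes lay between 0.000682 and 0.0464 by edgeR's quasi-likelihood test.

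Among the proteins linked to deadenylation and 3′ processing, 5 of 12 rose and 1 fell, against 21.18% and 11.28% of all genes. TOB2, of the same family as the BTG genes, was at 72.5 CPM on Day 2 and 316 CPM on Day 3, with all Day 3 embryos above all Day 2 embryos. CPSF2, a cleavage and polyadenylation factor, fell from 250 to 118 CPM (-0.83). Of 14 AU-rich and other decay binders 3 rose and 1 fell. NOCT, of the same nuclease family as CNOT6, rose most among the 49, from 72.4 ± 7.151 CPM (SD, n = 6) to 1051 ± 751 CPM (SD, n = 8), with 65.0 CPM in Day3-E1 (log2 fold change 4.28, standard error 0.67, adjusted p = 0.000281 in edgeR's quasi-likelihood test). CASC3, of the exon junction complex, fell from 215 to 110 CPM, with all Day 3 embryos below all Day 2 embryos.

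The genes outside the list whose log2 CPM over the 14 embryos ran closest to that of YTHDF1 were MUM1 (Pearson r = 0.988), ALG14, TADA1, MT3 (each 0.977) and LDHC (0.968). They share the libraries and the scaling of YTHDF1, and the correlations are given as a description. All 5 had lower means on Day 3, such as 84.7 and 28.6 CPM for LDHC.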

How the data were processed

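SCRB-Seq libraries of single blastomeres were analysed from the deposited table of UMI counts, 1 column per cell, which the authors made by mapping reads to Bos tau7 and the ERCC sequences with STAR 2.5.2b and counting UMI with the Drop-seq pipeline. The authors' normalised table was not used. Symbols were matched to the RefSeq gene table of a later assembly for names only, 44 of 46 by symbol and 2 by synonym, and no coordinates or sequences were taken from it. Members and gene lists were chosen with earlier results of these data known.

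Counts of cells with 2000 or more UMI were summed per embryo (6 Day 2, 8 Day 3), ERCC rows were left out (92), and the days were compared with edgeR 4.0.16 (R 4.3.3; filterByExpr, TMM, quasi-likelihood test, Benjamini-Hochberg over 5274 genes, threshold 0.05). The embryo was the replicate. The labels do not say which embryos shared parents, so p-values measure the spread between these embryos. TMM factors were 1.08 to 1.13 on Day 2 and 0.70 to 1.10 on Day 3, so fitted fold changes differ from ratios of CPM. Upper limits for genes with 0 UMI cover counting error only. Standard errors were the absolute log2 fold change divided by the square root of the test's F statistic. They include the spread between embryos. No doublets were called, since cells were picked singly. Text names every called member, key enzymes whatever their result, the largest called rise and fall of each other list, and the 5 genes most like YTHDF1. Values of 1 member and of 1 gene of the other lists are not reported here, though both are in the counts. TOB2 was named after its values were seen. BTG4, PAN3, PABPC1, PABPC1L, EDC4, DIS3, UPF1 and CPEB1 were not among the symbols in the UMI table and so were not analysed here. Alternatives were DESeq2 1.42.0, other scalings, cell filters, embryo subsets and added terms. The edgeR fit was tested on simulated counts in which few genes changed, some up and some down. That setting cannot show how calls hold under the shifts in scaling seen here. Within-plate means and the genes named after their values were seen were added after seeing the data.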

Additional observations from a re-analysis of the deposited data

Results flagged for a closer look

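In 72 sets of embryos (36 genes on each day), 2 held an embryo far from the others by Dixon's test, where chance gives about 1 in 20 sets, or 3.6. EXOSC10 reached 194.5 CPM in Day2-E1, with 152.3 CPM as the nearest Day 2 value. ZFP36L1 reached 620.2 CPM in Day3-E6, with 439.9 CPM as the nearest Day 3 value. Neither gene passed the test between the days.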

How the results depend on the processing

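Of the 13 genes called, DESeq2, all 170 cells and cells with 10000 or more UMI kept 13, the analyses without TMM, without a filter and with plate as a term 11 each, spike-in scaling 9, and leaving out single embryos 10 to 13. BTG1, ZCCHC6, YTHDF2, EXOSC1, ZFP36L2, DIS3L, CNOT9 and YTHDF1 kept direction and call under each of these. Thinning each cell to 2000 UMI left 655 genes tested, 8 of them members, and called 187 genes (135 higher, 52 lower) and 1 member, ZCCHC6. The first barcode set alone called 351 genes (327 higher, 24 lower) and 4 members, all higher. In edgeR's test both gave 0 members lower, with 0 and 2 at an unadjusted p under 0.05. Members called lower were 3 with DESeq2, without TMM and with plate as a term, 2 without the filter and with cells of 10000 or more UMI, and 9 with spike-in scaling. Over all genes, 981 were lower without TMM, and spike-in scaling gave 456 higher and 1907 lower. Leaving out single embryos gave 420 (without Day3-E4) to 919 (without Day3-E1) genes lower and 10 to 16 members called, 1 to 3 of them lower. The cause of these changes was not tested.

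The embryo numbers shared by the days did not pair the embryos: the correlation of same-numbered deviations ran from -0.134 to 0.0263. As a replicate block on embryos 1 to 6 of each day they gave 702 genes (488 higher, 214 lower) and 8 members (7 higher, 1 lower).

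Signs turned for PABPC4 with spike-in scaling (-0.27) and for genes that were not called. With spike-in scaling the log2 fold change was -0.52 for CNOT1, -0.64 for CNOT7, -0.25 for CNOT8, -0.41 for DCP1A, -0.22 for DCP2, -0.45 for EDC3, -0.44 for EXOSC10 and -0.66 for XRN2. Without TMM it was -0.017 for CNOT1, -0.19 for CNOT7 and -0.24 for XRN2. Without the filter it was -0.050 for CNOT7 and -0.048 for XRN2, and with cells of 10000 or more UMI -0.021 and -0.00018. In thinned cells CNOT7 had -0.15. With the first barcode set it was 0.044 for CNOT6L, -0.0049 for DCP1A and -0.091 for EDC3. With the replicate block it was 0.036 for CNOT6L and -0.10 for XRN2, and with plate as a term 0.064 for ZFP36L1 and -0.16 for XRN2. Leaving out single embryos moved CNOT6L from -0.13 to 0.0081, CNOT7 from -0.080 to 0.093 and XRN2 from -0.16 to 0.10. Without thinning, the difference in detection of YTHDF3 between the means over embryos went from 32.0 to -0.986 percentage points (Day 3 minus Day 2). The 10 genes with 3 to 120 UMI in all were too shallow for the test.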
